A study of Rattus norvegicus with 6 samples.

Results

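The genes examined here encode the eukaryotic translation initiation factors (eIF) and elongation factors (eEF), together with the small set of proteins named after them that regulate or modify them. They were taken by symbol, as every name that begins with Eif1 to Eif6 or with Eef1 or Eef2 and that had 10 or more counts in at least 3 libraries. Of 21857 symbols in the count files, 63 matched. The rule leaves out 3 of them, which are not analysed here, and Eif4e1b fell under the count minimum with 0 counts in each of the 6 libraries, leaving 59 genes. Eef2kmt, with a mean of 50.3 counts, was the lowest of the genes that were kept. All 59 genes also passed the expression filter of the test.

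RNA-seq was done on primary neonatal rat cardiac fibroblasts (NRCFs), grown from the hearts of rats within 3 days of birth. The strain is Sprague-Dawley in the study's methods and Noway in the labels. The control group, Vector, has the WT genotype label and received the empty pcDNA 3.1 plasmid (3 libraries), and the other group has the label FTO overexpression and received the same plasmid carrying the rat coding sequence of FTO, an enzyme that removes the N6-methyladenosine mark from RNA (3 libraries). Transfection was transient and both groups went through it, and the labels do not say whether the 3 libraries of a group came from separate cultures, so the p-values below measure the spread between these libraries, which may be technical.

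Translation of a message starts when eIF4F, made of the cap-binding protein eIF4E, the scaffold eIF4G and the helicase eIF4A, opens the capped 5′ end. eIF3 and the initiator tRNA carrier eIF2 bring in the small ribosomal subunit, which scans to the start codon. The 4E-binding proteins hold eIF4E away from eIF4G, and kinases that phosphorylate the alpha subunit of eIF2 slow its recycling by eIF2B, the exchange factor that reloads eIF2 with GTP. During elongation eEF1A delivers aminoacyl-tRNA, the eEF1B subunits reload eEF1A with GTP, and eEF2 moves the ribosome along by one codon at a time. In fibroblasts this machinery makes the large amount of matrix protein for which these cells are known.

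The libraries held between 13178952 and 17857999 counts. Values below are library-size-scaled counts (CPM), normalised by the TMM method of edgeR. The floor of 3 counts, the limit that a count of 0 allows, was worth 0.168 to 0.227 CPM depending on the library. Correlations of log2(CPM + 1) were at least 0.994 between libraries of a group and at most 0.900 between groups. Fto itself measured 87.8, 89.6 and 87.4 CPM in Vector and 93.2, 90.8 and 92.9 CPM in the libraries labelled FTO. The groups do not overlap, but the difference did not pass the test (log2 fold change 0.06 ± 0.0468 SE, adjusted p = 0.239, 95% interval 0.976-fold to 1.12-fold). For this reason the second group is called the libraries labelled FTO throughout. The study itself states that it checked the efficiency of the plasmid by qRT-PCR, and its supplement presents FTO protein levels with the plasmid. The study also reports less N6-methyladenosine in a dot blot of fibroblasts given the plasmid.

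The labelled cell type was checked against its markers, and other cell types of the heart were read in the same way. All 7 fibroblast markers on the list were measured, with a summed level of 39830 to 40444 CPM in Vector and 19219 to 20172 CPM in the libraries labelled FTO (3 called higher and 4 lower). Cardiomyocyte markers (6 of 6 measured were called, 5 higher and 1 lower) summed to 1434 to 1464 CPM and 2119 to 2174 CPM in the same order. Macrophage markers (7 of 7 lower) summed to 491 to 506 CPM and 127 to 144 CPM. Endothelial markers (3 higher of 4 tested) summed to 19.3 to 19.8 CPM and 43.2 to 44.6 CPM, epithelial or epicardial markers (2 higher and 1 lower of 4) to 25.5 to 27.4 CPM and 109 to 121 CPM, and mural markers (1 higher and 2 lower of 3 tested) to 944 to 985 CPM and 702 to 767 CPM. Such sums are ruled by the most counted markers, and some single markers moved further. Among fibroblast markers Dcn was 119-fold and Pdgfra 5.63-fold higher, while Col1a1 and Col3a1 were 3.12-fold and 3.21-fold lower. Macrophage markers ranged from Cd14 (1.67-fold lower) to C1qb (204-fold lower, with 1 or 2 counts per library labelled FTO). Msln rose from 2.83 to 87.1 CPM and Kcnj8 from 2.06 to 60.8 CPM. None of the measured markers on these lists was at or under the floor in every library. The part of these differences in the results below was not tested, and in bulk RNA fewer cells of a type and less RNA per cell cannot be told apart.

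Elongation factor messages are known for a run of pyrimidines at the 5′ end, so the region around the annotated transcription start is printed for the genes on which the elongation results turn. The sequences are from RefSeq, build GRCr8, which is not the build named in the submitters' processing notes (rn6). Each runs 5′ to 3′ on the transcribed strand from 30 bases before the start to 30 bases from the start on, and capitals mark the longest run of C and T.
Eef1a1, chr8:88225040-88225099, minus strand: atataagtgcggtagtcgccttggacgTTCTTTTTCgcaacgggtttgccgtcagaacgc
Eef1g, chr1:215289785-215289844, plus strand: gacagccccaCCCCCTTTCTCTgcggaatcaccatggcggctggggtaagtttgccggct
Eef2, chr7:9189209-9189268, minus strand: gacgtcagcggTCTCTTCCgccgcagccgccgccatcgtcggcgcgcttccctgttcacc
Eef1b2, chr9:72074061-72074120, plus strand: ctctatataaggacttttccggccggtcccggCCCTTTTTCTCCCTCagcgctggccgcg
Eef1a2, chr3:188652604-188652663, minus strand: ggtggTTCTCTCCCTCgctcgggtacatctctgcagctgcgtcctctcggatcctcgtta
The runs were 9 bases in Eef1a1, 12 in Eef1g, 8 in Eef2, 15 in Eef1b2 and 11 in Eef1a2. That of Eef1a1 spans the annotated start and that of Eef1b2 lies just after it, while the others lie before it.

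Compared to Vector, 38 of the 59 translation factor genes passed the test in the libraries labelled FTO (edgeR quasi-likelihood test, Benjamini-Hochberg adjusted p under 0.05 over 12941 genes), which is 64.4% of them against 65.9% of all genes tested. Of these, 19 rose and 19 fell, where 33.2% of all genes tested rose and 32.8% fell. The share that passed was therefore near the background. The size of the changes was small beside that of other genes. The median absolute log2 fold change was 0.206 over the 59 genes and 0.363 over all genes tested. All genes tested include genes with few counts, and the comparison was not matched for the level of the genes. For 51 of the 59 the log2 fold change was under 0.5 in size. A call together with a log2 fold change of at least 0.5 was reached by 8 (13.6%, against 37.2% of all genes tested). The threshold used by the study, at least 1 on the log2 scale together with an unadjusted p under 0.05, was reached by Eef1a2 alone (1.69%, against 19.6% of all genes tested). That gene was higher, as were 10.4% of all genes tested by this threshold, with 9.27% lower. For 40 genes no library of a group lay within the range of the other group (67.8%, against 70.3%).

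**Figure D1:**
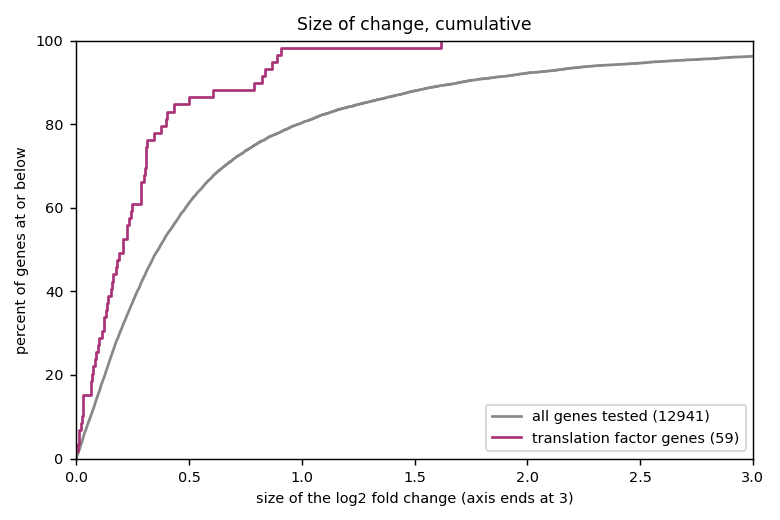
Cumulative percent of genes (vertical axis) whose log2 fold change between the libraries labelled FTO and Vector is at or below a given size (horizontal axis), for the 59 translation factor genes and for all 12941 genes tested. The curve of the translation factor genes lies to the left, with a median of 0.206 against 0.363.

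The depth and the small spread between libraries of a group, which may be technical, allowed such small differences to be called. The mean count per gene was between 50.3 and 51182, with a median of 1400. The median coefficient of variation between libraries was 2.79% in Vector and 5.01% in the libraries labelled FTO, and the SE of the log2 fold change had a median of 0.0530. Eif4b, with a log2 fold change of 0.10, was the smallest difference that was called, and Eef1akmt1, with 0.19, the largest that was not. The 95% intervals of the 21 genes that were not called reached from -0.35 to 0.40 in log2, and for 15 of them the interval lay within 0.25 of 0.

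**Figure D2:**
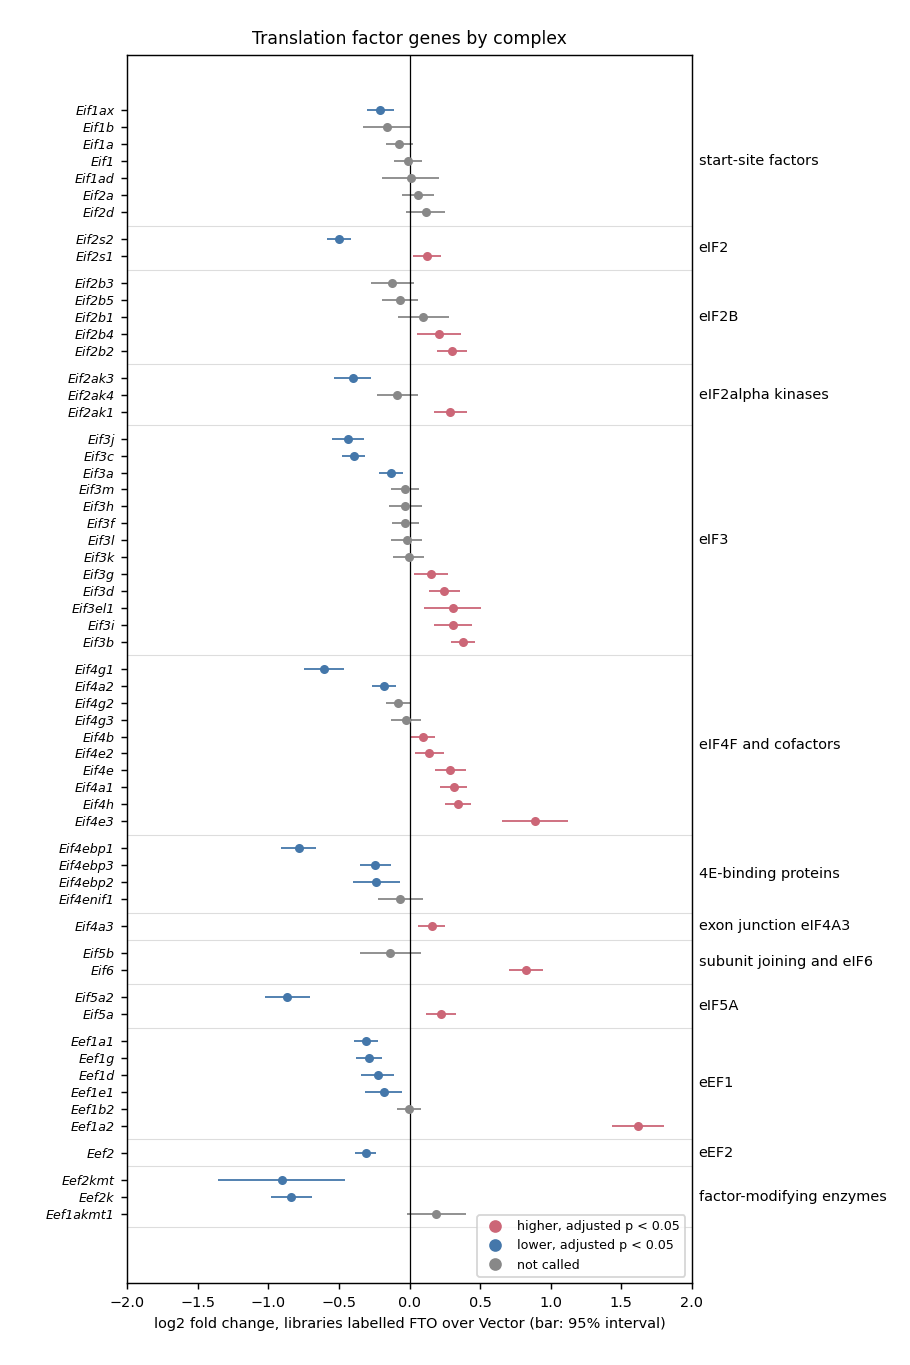
Log2 fold change of each of the 59 translation factor genes in the libraries labelled FTO over Vector (points, with 95% intervals as bars), grouped by factor complex, 3 libraries per group. Red points are the 19 genes that rose, blue points the 19 that fell and grey points the 21 that were not called. Eef1a2 is at 1.62 and no other gene is past 1 in size.

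The summed level of the 59 genes was 17263, 16923 and 16831 CPM in Vector and 15440, 15718 and 15117 CPM in the libraries labelled FTO. Every library labelled FTO was below every Vector library, and the ratio of the means was 0.907. This sum is ruled by Eef2, Eef1a1 (means of 3185 and 2570 CPM) and Eef1g (1351 and 1107 CPM). It does not describe the genes at large, of which 19 rose and 19 fell. In CPM, the eEF1 genes and Eef2 had the largest differences in summed level. As ratios of the means (0.832 and 0.807) they differed less than some groups with fewer counts. These were the factor-modifying enzymes (0.644), Eif5b with Eif6 (1.58) and the 4E-binding protein group (0.765). The 6 eEF1 genes summed to 5169 ± 143 CPM in Vector and 4301 ± 120 CPM in the libraries labelled FTO (mean ± SD, n = 3), and Eef2 to 3857 ± 31.1 and 3111 ± 5.96 CPM. The eIF3 genes together differed less, at 2595 ± 32.5 and 2492 ± 56.8 CPM, and the genes of eIF4F and its cofactors were higher, at 2758 ± 37.4 and 2966 ± 62.0 CPM. Sums of CPM are ruled by the most counted genes of a complex.

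To look at elongation, the abundant factors were examined first. Eef1a1, which encodes the ubiquitous eEF1A that carries aminoacyl-tRNA to the ribosome, measured 3316, 3142 and 3097 CPM in Vector and 2614, 2588 and 2509 CPM in the libraries labelled FTO. Eef2, the translocase, measured 3867, 3881 and 3822 CPM against 3116, 3111 and 3104 CPM. Both genes were lower in every library labelled FTO than in any Vector library, and they fell by nearly the same amount. The log2 fold change was -0.31 ± 0.0396 (SE) for Eef1a1 (adjusted p = 5.8e-06) and -0.31 ± 0.0352 for Eef2 (adjusted p = 1.58e-06). Counts of Eef1a1 are uncertain because near-identical copies of this gene exist in the genome and the counting of shared reads is not given in the sources used here.

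The exchange factor that reloads eEF1A is made of several subunits, and their genes did not move alike. Eef1g, the gamma subunit, measured 1376, 1330 and 1347 CPM in Vector against 1107, 1158 and 1057 CPM, and fell by 0.29 on the log2 scale (SE 0.0415, adjusted p = 2.06e-05). Eef1d, the delta subunit, had 181, 175 and 175 CPM against 144, 167 and 145 CPM, and fell by 0.22 (SE 0.0553, adjusted p = 0.00226). Neither gene overlapped between the groups. Eef1b2, the beta subunit, in contrast measured 405, 392 and 398 CPM in Vector and 393, 412 and 387 CPM in the libraries labelled FTO. Here the libraries were mixed, with a log2 fold change of -0.0027 (SE 0.0403, adjusted p = 0.958) and a 95% interval of 0.940-fold to 1.06-fold. Eef1b2 per Eef1a1 count was 0.125 ± 0.00327 in Vector and 0.155 ± 0.00448 in the libraries labelled FTO, a ratio chosen after the values were seen and given with no test. Eef1e1, a scaffold protein of the multi-synthetase complex despite its name, fell by 0.18 (adjusted p = 0.0168, or 0.0776 without Vector replicate 2).

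Eef1a2 encodes the second form of eEF1A, which in adult animals is the form of muscle and neurons. It measured 10.1, 9.66 and 10.7 CPM in Vector and 30.4, 33.0 and 30.2 CPM in the libraries labelled FTO. The groups were well separated, and Eef1a2 was 3.07-fold higher (95% interval 2.70-fold to 3.49-fold, log2 fold change 1.62 ± 0.0868 SE, adjusted p = 2.12e-10). It was the gene with the largest change of the 59, in the direction opposite to Eef1a1. Per count of Eef1a1 it went from 0.00319 to 0.0121, so it held a small share of the eEF1A counts in both groups. Of the 6 cardiomyocyte markers measured, 5 moved in the same direction as Eef1a2. As means of Vector and of the libraries labelled FTO, Tnni3 was at 7.53 and 28.0 CPM, Myh6 at 192 and 496, Nppa at 271 and 658, Actn2 at 44.7 and 100.3 and Myh7 at 159.9 and 209 CPM. Tnnt2, the marker with the most counts, fell from 769.8 to 648.7 CPM. The summed marker level was at most 1464 CPM in Vector and at least 2119 CPM in the libraries labelled FTO. Their part in the change of Eef1a2 was not tested.

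**Figure D3:**
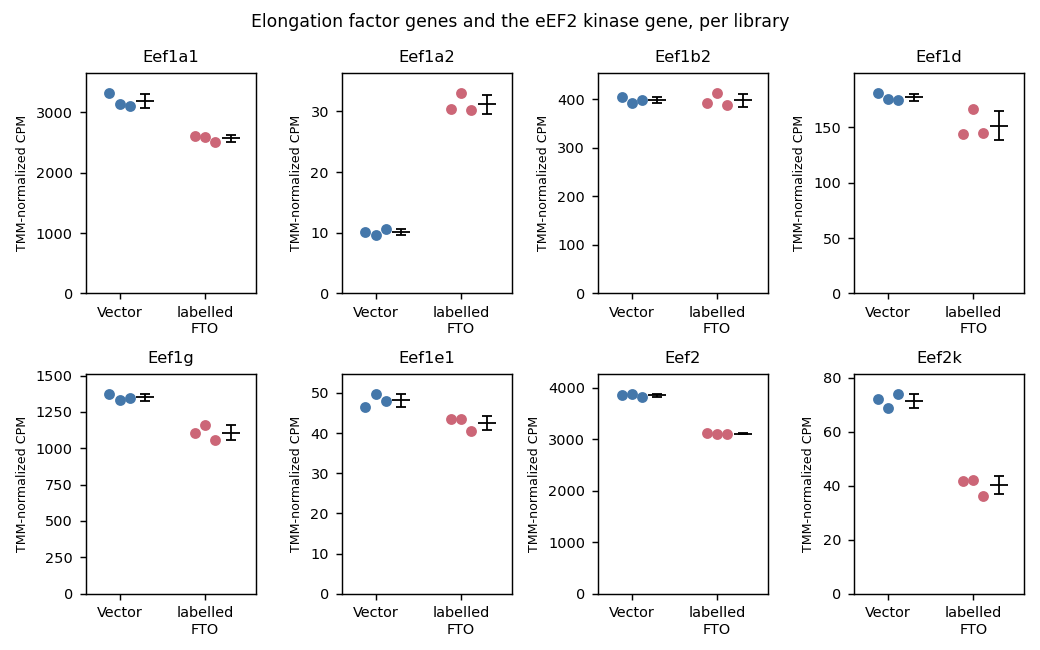
TMM-scaled CPM of 7 elongation factor genes and of Eef2k in each library (points, Vector in blue and labelled FTO in red), with the group mean and SD beside them (n = 3 per group), all vertical axes starting at 0. Eef1a1, Eef1d, Eef1g, Eef1e1, Eef2 and Eef2k are lower in the libraries labelled FTO, Eef1a2 is higher, and Eef1b2 overlaps.

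Of the enzymes that act on elongation factors, Eef2k encodes the kinase that phosphorylates and inhibits eEF2. It measured 72.1, 68.7 and 73.9 CPM in Vector and 41.9, 42.3 and 36.2 CPM in the libraries labelled FTO. All 3 were below every Vector library, and Eef2k was 1.79-fold lower (log2 fold change -0.84 ± 0.0670 SE, adjusted p = 2.78e-08). Relative to its substrate the message was also lower, at 0.0186 ± 0.000818 in Vector and 0.0129 ± 0.00107 in the libraries labelled FTO, in counts of Eef2k per count of Eef2, a ratio chosen after the values were seen and not tested. Eef2kmt, an eEF2 lysine methyltransferase, had 5.27, 4.36 and 3.88 CPM against 1.75, 2.57 and 2.79 CPM, and fell by 0.91 (SE 0.212, adjusted p = 0.00154). The error of that value is the largest of the 59, the gene had the fewest counts, and it overlaps Alg1 in the RefSeq annotation. The eEF1A methyltransferase gene Eef1akmt1 had 12.6 to 13.4 CPM in Vector and 14.1 to 15.9 CPM in the libraries labelled FTO, with no overlap, and did not pass the test (adjusted p = 0.1002).

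The start-site sequences printed above were then set beside these values. A run of at least 8 C or T, searched on the transcribed strand within the 60 printed bases, was found in 4 of 5 eEF1 promoters with a RefSeq entry and in that of Eef2. The window takes in 30 bases before the annotated start, and a run there lies outside the annotated message. Over all 53 translation factor genes with an entry 18 had one (34.0%), and over all RefSeq promoters in the same window 23.2%. Among the genes that fell 3 of 17 had such a run (17.6%), among those that rose 7 of 16 (43.8%) and among those not called 8 of 20 (40.0%). Eef1a1, Eef1g and Eef2, which fell, were the genes with a run among those that fell, and Eef1b2 had the longest of the printed elongation factor runs with no called difference. The counts therefore do not address runs at the 5′ end of the message, and the part of such runs in these values was not tested. Both genes below, which encode the f and k subunits of eIF3, had runs of 14 bases and were also not called (log2 fold changes of -0.03 and -0.0059). The run of Eif3f lies after the annotated start and that of Eif3k before it.
Eif3f, chr1:172369032-172369091, plus strand: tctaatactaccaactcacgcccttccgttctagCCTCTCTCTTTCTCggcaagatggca
Eif3k, chr1:93397458-93397517, minus strand: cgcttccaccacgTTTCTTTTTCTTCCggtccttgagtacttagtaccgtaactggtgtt

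The cap-binding machinery was examined next. Of the 10 genes of eIF4F and its helicase cofactors, 6 rose and 2 fell, so 80% were called beside 65.9% of all genes tested, with a median log2 fold change of 0.12 beside 0.0011. Eif4e, the cap-binding protein itself, measured 97.2, 98.4 and 92.5 CPM in Vector and 120, 121 and 111 CPM in the libraries labelled FTO. Its groups did not overlap, and it rose by 0.29 in log2 (SE 0.0516, adjusted p = 0.000161). Eif4a1, the main helicase, rose from 642, 606 and 599 CPM to 772, 798 and 728 CPM (log2 fold change 0.31 ± 0.0446 SE, adjusted p = 1.66e-05), and Eif4h, a cofactor that stimulates the helicase, from 294, 296 and 301 CPM to 377, 397 and 359 CPM (0.34 ± 0.0440, adjusted p = 5.65e-06). Both were higher in all 3 libraries labelled FTO. Counts of Eif4a1 are uncertain, since Eif4a1l and other annotated genes overlap it and Eif4a2 is close in sequence. Eif4b, the other helicase cofactor, was called at 0.10 (adjusted p = 0.0470). Its call was lost when 1 library was left out for 5 of the 6 libraries, with an adjusted p of up to 0.221 without Vector replicate 3.

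Eif4g1, the scaffold that joins eIF4E to eIF4A and eIF3, moved the other way. It measured 55.2, 57.4 and 57.1 CPM in Vector and 36.5, 34.5 and 40.2 CPM in the libraries labelled FTO. The highest library labelled FTO was well under the lowest Vector library, and Eif4g1 was 1.52-fold lower (log2 fold change -0.61 ± 0.0659 SE, adjusted p = 1e-06). The other scaffold genes did not pass the test. Eif4g3 had a log2 fold change of -0.03 (adjusted p = 0.678), and Eif4g2, whose product lacks the eIF4E-binding part, of -0.08 (adjusted p = 0.0808, or 0.0287 without replicate 2 labelled FTO). Within a library, Eif4g1 was 0.590 ± 0.0255 per count of Eif4e in Vector and 0.317 ± 0.0412 in the libraries labelled FTO, a comparison chosen after the values were seen.

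The remaining cap-binding relatives rose. Eif4e3, a divergent cap-binding protein, measured 7.68, 7.45 and 8.45 CPM in Vector and 15.2, 15.1 and 13.6 CPM in the libraries labelled FTO, and was 1.86-fold higher (log2 fold change 0.89 ± 0.110 SE, adjusted p = 3.84e-06). The groups were apart by more than their spread, but the RefSeq annotation places Eif4e3 over part of Foxp1, and whether counting used strand is not given in the sources used here. Eif4e2, which binds caps without joining eIF4G and is known as a repressor, was higher by 0.14 (adjusted p = 0.0195, or 0.102 without Vector replicate 2). Eif4a2, the second helicase, fell by 0.18 (adjusted p = 0.00116). Eif4a3, a helicase of the exon junction complex and not of eIF4F, rose by 0.16 (adjusted p = 0.00625).

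All 3 genes for the 4E-binding proteins, the repressors of eIF4E that the kinase mTORC1 inactivates, fell (3 of the 4 genes on the list, where 32.8% of all genes tested fell). Eif4ebp1 measured 109, 105 and 104 CPM in Vector and 62.0, 66.1 and 57.2 CPM in the libraries labelled FTO. The gap between the groups was many times their spread, and Eif4ebp1 was 1.72-fold lower (log2 fold change -0.79 ± 0.0576 SE, adjusted p = 9.65e-09). Eif4ebp2 and Eif4ebp3 fell by less, by 0.23 (adjusted p = 0.0157, or 0.105 without Vector replicate 3) and 0.24 (adjusted p = 0.000645). Eif4enif1, which carries eIF4E into the nucleus and into P-bodies, did not pass the test (-0.07, adjusted p = 0.450). With Eif4e higher and Eif4ebp1 lower, the count of Eif4ebp1 per count of Eif4e went from 1.11 ± 0.0341 to 0.526 ± 0.0167. This ratio was also chosen after the values were seen, and it is one of messages, not of proteins.

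**Figure D4:**
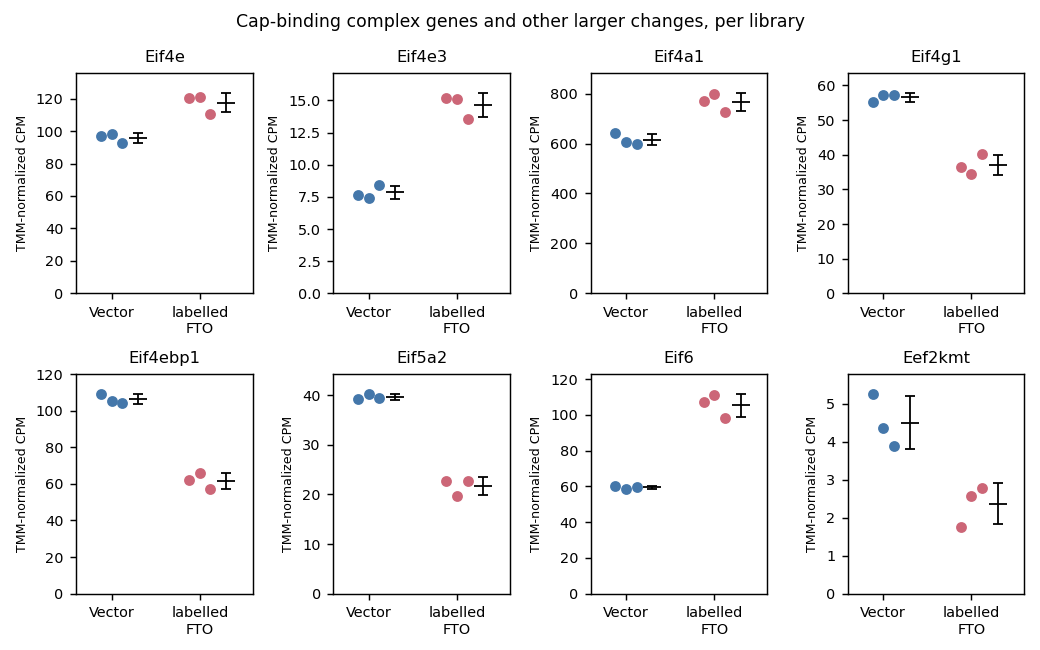
TMM-scaled CPM per library (points, Vector in blue and labelled FTO in red), with the group mean and SD (n = 3 per group), for 4 genes of eIF4F, for Eif4ebp1 and for 3 genes of other complexes with a log2 fold change past 0.5 in size. Eif4e, Eif4e3, Eif4a1 and Eif6 are higher in every library labelled FTO, and Eif4g1, Eif4ebp1, Eif5a2 and Eef2kmt are lower in every one.

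To follow the initiator tRNA carrier, the genes of eIF2, of its exchange factor and of its kinases were compared. Eif2s2, the beta subunit of eIF2, measured 270, 264 and 273 CPM in Vector and 188, 192 and 191 CPM in the libraries labelled FTO. No library came near the other group, and Eif2s2 was 1.41-fold lower (log2 fold change -0.50 ± 0.0399 SE, adjusted p = 2.72e-08). Eif2s1, the alpha subunit that carries the regulatory phosphorylation site, measured 150, 148 and 143 CPM against 159, 168 and 154 CPM, and was called higher by 0.12 (adjusted p = 0.0287). That call was lost without Vector replicate 2 or 3 or replicate 1 or 2 labelled FTO (adjusted p 0.0702 to 0.138). The ratio of Eif2s2 to Eif2s1 counts was 1.83 ± 0.0702 in Vector and 1.19 ± 0.0486 in the libraries labelled FTO (chosen after the values were seen, not tested). The gene of the remaining subunit is not analysed here.

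In eIF2B, 2 of 5 genes rose and none fell (40% called, beside 65.9% of all genes tested, of which 33.2% rose). Eif2b2, the beta subunit, measured 66.4, 65.6 and 63.8 CPM in Vector and 80.5, 80.8 and 79.8 CPM in the libraries labelled FTO, and rose by 0.30 (SE 0.0497, adjusted p = 7.85e-05). Eif2b4, the delta subunit, was higher by 0.21 (adjusted p = 0.0206), a call lost without Vector replicate 2 or 3 or replicate 2 labelled FTO (adjusted p 0.0540 to 0.0653). The genes of the alpha, gamma and epsilon subunits, Eif2b1, Eif2b3 and the catalytic Eif2b5, had log2 fold changes of 0.10, -0.12 and -0.07 and did not pass the test (adjusted p = 0.322, 0.145 and 0.313).

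The 3 kinases of eIF2alpha in the set answer to different stresses, and their genes differed in direction. Eif2ak1 (HRI), the heme-regulated kinase, rose from 66.3, 59.8 and 60.7 CPM to 76.1, 76.8 and 75.3 CPM (log2 fold change 0.29, adjusted p = 0.000294). Eif2ak3 (PERK), the kinase of the endoplasmic reticulum, fell from 49.3, 47.2 and 46.3 CPM to 34.7, 36.8 and 36.5 CPM (-0.40, adjusted p = 3.57e-05). Neither overlapped between the groups. Eif2ak4 (GCN2), which senses uncharged tRNA, was not called (-0.09, adjusted p = 0.284). The summed level of the 3 genes was 145 CPM in both groups. Eif2ak1 overlaps Aimp2 and Ankrd61 in the RefSeq annotation.

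Among the 13 genes of eIF3, the largest initiation factor, 5 rose, 3 fell and 5 were not called, with a median of -0.02 in log2. The share called, 61.5%, was near the 65.9% of all genes tested. Eif3a, the largest subunit, measured 582, 607 and 609 CPM in Vector and 542, 540 and 560 CPM in the libraries labelled FTO (-0.13 ± 0.0391 SE, adjusted p = 0.00789). Eif3c, a subunit of the same core, measured 581, 561 and 549 CPM against 423, 435 and 427 CPM (-0.40 ± 0.0393, adjusted p = 3.41e-07). Both fell, with no overlap. Eif3b, which holds the b, g and i subunits together, measured 228, 225 and 224 CPM against 291, 299 and 291 CPM, and rose by 0.38 (SE 0.0392, adjusted p = 5.85e-07). The count of Eif3c per count of Eif3b was thus 2.49 ± 0.0496 in Vector and 1.46 ± 0.00706 in the libraries labelled FTO, in a ratio chosen after the values were seen.

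Set out by the known architecture of eIF3, a grouping made after the values were seen and given with no test, the 3 genes of the b, g and i module were all called higher (Eif3b 0.38, Eif3g 0.15 and Eif3i 0.31). The call of Eif3g, the one called gene with overlapping groups, was lost when either of Vector replicates 2 and 3 or of replicates 1 and 2 labelled FTO was left out (adjusted p up to 0.141). The 5 genes f, h, k, l and m had log2 fold changes between -0.03 and -0.0059, none of them called. Eif3d, the subunit that can bind the cap of certain messages, rose by 0.25 (adjusted p = 0.000629). Eif3j, a loosely bound subunit, fell by 0.43 (adjusted p = 3.88e-06) from 108, 97.8 and 102 CPM to 78.8, 76.0 and 73.8 CPM. Eif3el1, whose symbol denotes a copy of the e subunit gene, was called at 0.31 (adjusted p = 0.0101, or 0.0565 without Vector replicate 3). Eif3e itself is not among the matched symbols, so the e subunit gene was not measured under its own name. Counts of Eif3el1 may include reads of it. By the RefSeq annotation Eif3i overlaps Tmem234 and Eif3j overlaps Spg11.

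Of the 7 genes grouped here as start-site factors 1 was called, the lowest share of any complex (14.3%, beside 65.9% of all genes tested). Eif5, which also acts at the start codon, is not among the matched symbols and was not measured. Eif1, which guards start-codon fidelity, measured 222, 218 and 221 CPM in Vector and 223, 228 and 207 CPM in the libraries labelled FTO. The libraries of the groups were mixed, with a log2 fold change of -0.01 (SE 0.0452, adjusted p = 0.851). Eif1ax, an eIF1A gene that promotes scanning, was the one call, at 211, 229 and 225 CPM against 190, 190 and 196 CPM (-0.21, adjusted p = 0.000816). Eif1a and Eif1ax are near-identical in sequence, so the split of reads between them is uncertain. Eif1a (-0.07), Eif1b (-0.16), Eif1ad (0.01) and the alternative tRNA carriers Eif2a (0.06) and Eif2d (0.11) were not called. Eif1b was called without replicate 2 labelled FTO (adjusted p = 0.0243) and Eif2d without replicate 3 labelled FTO (adjusted p = 0.0424).

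After the start codon is found, eIF5B joins the large ribosomal subunit, and eIF6 keeps free large subunits from joining too early. Eif6 measured 60.2, 58.6 and 59.5 CPM in Vector and 107, 111 and 98.3 CPM in the libraries labelled FTO. It was higher in each of these by more than the spread, with a 1.77-fold difference (log2 fold change 0.83 ± 0.0559 SE, adjusted p = 3.72e-09), and was the initiation factor gene with the smallest adjusted p. Eif5b, with 17.9, 17.4 and 17.5 CPM against 15.5, 14.0 and 18.2 CPM, overlapped and was not called (-0.14, adjusted p = 0.257, or 0.0341 without replicate 3 labelled FTO).

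The genes for eIF5A, the factor that carries hypusine and helps ribosomes past stretches such as runs of proline, moved in opposite directions. Eif5a, the ubiquitous form, measured 450, 441 and 450 CPM in Vector and 528, 558 and 480 CPM in the libraries labelled FTO, and rose by 0.22 (SE 0.0497, adjusted p = 0.00105). Eif5a2, the second form, measured 39.3, 40.3 and 39.4 CPM against 22.7, 19.6 and 22.8 CPM and was 1.82-fold lower (log2 fold change -0.87 ± 0.0744 SE, adjusted p = 6.53e-08). Neither gene overlapped between the groups. Eif5a overlaps Gps2 in the RefSeq annotation.

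The ratio of counts of close relatives was taken within each library for 9 pairs, which were chosen with earlier results of these data known, so the ratios restate the values above and are a description. The groups did not overlap for any of the 9. The exact permutation test (two-sided) can give no p below 0.1 with 3 libraries against 3, and p = 0.1 for each pair says no more than that. Eif5a2 per Eif5a went from 0.0888 to 0.0418, and Eif4a2 per Eif4a1 from 0.627 to 0.446. In both pairs the second form was lower relative to the main one. The reverse was seen for Eef1a2 per Eef1a1, given above, and for Eif4e3 per Eif4e, from 0.0820 to 0.125. Eif4ebp2 per Eif4ebp1 went from 0.432 to 0.634, Eif4g3 per Eif4g1 from 2.80 to 4.21 and Eif4g2 per Eif4g1 from 9.43 to 13.7, since in these pairs the gene in the denominator had the larger fall. The smallest shifts were in Eif4e2 per Eif4e (0.987 to 0.889) and Eif1b per Eif1 (0.120 to 0.108). These are ratios of read counts that are not divided by gene length, so their absolute level does not compare the amounts of the messages.

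**Figure D5:**
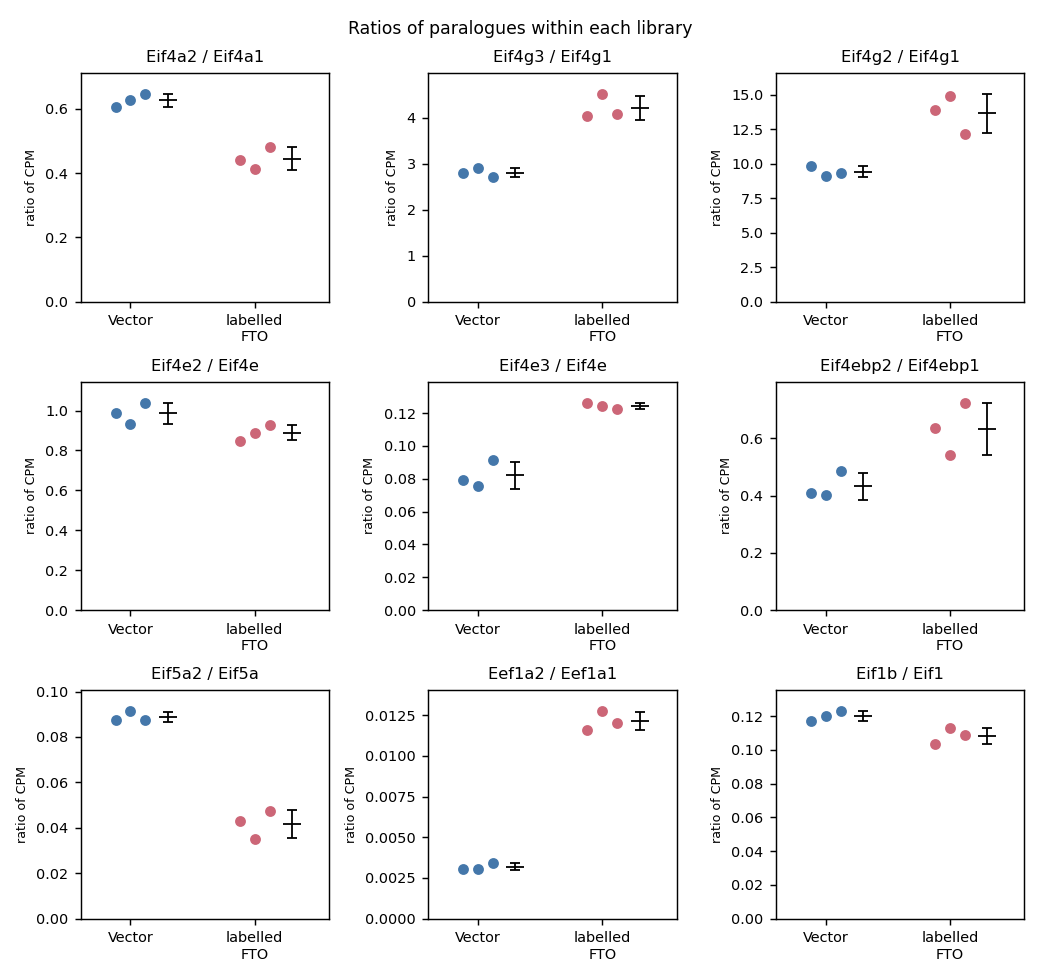
Ratio of CPM of related genes within each library (points, Vector in blue and labelled FTO in red) for 9 pairs, with the group mean and SD (n = 3 per group), all vertical axes starting at 0. The groups do not overlap in any pair, and the largest shift is that of Eef1a2 per Eef1a1, from 0.00319 to 0.0121.

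Other genes of translation and its control were counted from lists. The integrated stress response is the program that follows eIF2alpha phosphorylation. Of 16 genes listed for it, 15 were measured. Of these, 14 were called, 10 of them lower and 4 higher, with a median log2 fold change of -0.42. The list also holds genes that act on eIF2 or its kinases. Among these, Impact, Nck1 and Abcf1 were called higher, and Gcn1l1, Nck2, Dnajc3 and Ppp1r15b lower, so the counts are not of the program alone. The largest were Chac1 (-2.86), which degrades glutathione, Trib3 (-2.21), a pseudokinase, and the transcription factor Atf5 (-1.78). The core transcription factors of the response differed in direction, and they and Impact were named after their values were seen. Atf4, whose translation rises when eIF2 is limiting, fell by 0.70 at the level of its message (424 and 261 CPM), while Ddit3, which encodes CHOP, rose by 1.28 (32.5 and 79.2 CPM) and Impact, an inhibitor of GCN2 activation, by 0.91 (85.0 and 160 CPM). Of 23 genes tested among the 26 listed for the mTORC1 and S6 kinase arm, 5 rose and 5 fell, with a median of 0.0042. The largest changes were in the mTOR inhibitor Deptor (-1.65) and the stress-induced inhibitors Sesn2 (-1.16) and Sesn3 (-1.13). Genes of this arm that rose, by smaller amounts, include Pdcd4 (0.74) and Ddit4 (0.34). Sesn2 is counted in both of these lists.

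Cap and poly(A) binding genes were divided in the same way, with 6 higher and 5 lower of 19 tested. The largest changes were Cyfip2 (-1.50), of a family that binds eIF4E, the RNA-binding protein gene Carhsp1 (0.86) and Gigyf1 (0.56), which works with eIF4E2. Of 9 genes tested among the 12 listed for release and recycling, 3 rose and 4 fell. The largest changes were in Gspt2 (0.49), a release factor eRF3 gene, and Ltn1 (-0.46), a ligase that tags stalled chains. Rack1 (-0.36), a protein of the small ribosomal subunit, came next. Of 9 genes that make hypusine on eIF5A or diphthamide on eEF2, 4 rose and none fell, led by the diphthamide genes Dph6 (0.80) and Dph7 (0.37) and by Dhps (0.25), the first enzyme of hypusine synthesis. Among 11 mitochondrial translation factors only Mrrf (-0.33), for ribosome recycling, and Gfm1 (0.19), an elongation factor, were called. These lists stood at 93.3%, 43.5%, 57.9%, 77.8%, 44.4% and 18.2% called in the order given, beside 65.9% of all genes tested.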

How the data were processed

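RNA-seq was compared between 3 Vector and 3 libraries labelled FTO overexpression, grouped by genotype label. The authors deposited raw counts, whole numbers per gene symbol, in 1 table per library. Total RNA was extracted with TRIzol and libraries were made with a NEBNext Ultra kit for Illumina sequencing. The submitters' processing notes name Trimmomatic and rn6. Which aligner, counter and annotation were used, and whether strand was, is not given in the sources used here, so counts of near-identical or overlapping genes are uncertain. Of 21857 symbols, 12941 passed filterByExpr of edgeR 4.0.16 (minimum count 10) in R 4.3.3. Counts were TMM-scaled (factors 0.995 to 1.005) and compared with the two-sided quasi-likelihood test of edgeR (glmQLFit, glmQLFTest) without covariates, with Benjamini-Hochberg adjustment over all tested genes and a threshold of 0.05. Errors are SE for log2 fold changes and SD otherwise (n = 3). Intervals are 95% and cover counting error and the spread between libraries only.

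Members of complexes, pathway lists, marker lists and paralogue pairs were chosen with earlier results of these data known. Eif1a and Eif3el1 were placed in their complexes once the symbols in the files had been read. Values in every library are given for genes called with a log2 fold change of at least 0.5 in size and for the most counted gene of each complex, with others added to show a complex. At most 3 called genes with the largest change were named per pathway list. Alternatives were DESeq2 1.42.0, limma 3.58.1 voom, no filter, library size alone, filtering by the count rule of the set, DESeq2 size factors, a replicate block and leaving out each library. Starts and sequences were read from RefSeq (GRCr8) by symbol, with 53 of 59 genes matched, and the first entry was used for 3 genes that had more than 1. No pair of libraries within a group agreed within sampling noise (chi-square per degree of freedom of 1.58 to 8.38).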

Additional observations from a re-analysis of the deposited data

How the results depend on the processing

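The count of called translation factor genes was 38 and ranged from 32 to 39 over 13 alternatives, and that over all genes tested was 8531 and ranged from 7795 to 9009, with DESeq2 lowest in the latter. Of the 59 genes, 40 changed neither call nor sign in any alternative, and 30 of the 38 called genes kept both throughout. The 8 that lost the call in at least 1 alternative were Eif4b, Eif2s1, Eif2b4, Eif3g, Eif4e2, Eef1e1, Eif4ebp2 and Eif3el1. Under DESeq2 the adjusted p was 0.0611 for Eif2s1, 0.0554 for Eif2b4, 0.0744 for Eif4b and 0.0503 for Eif4e2. Calls lost or gained without 1 library stand beside those genes above, with Eif4g2, Eif1b, Eif2d and Eif5b as the gains. No called gene changed sign. Signs turned for 7 genes that were not called. With library size alone the log2 fold change was 0.0055 for Eef1b2 and 0.0022 for Eif3k, and with limma voom it was -0.0044 for Eif1ad. Leaving out each library gave -0.027 to 0.012 for Eef1b2, -0.037 to 0.028 for Eif1, -0.083 to 0.11 for Eif1ad, -0.020 to 0.17 for Eif2b1, -0.049 to 0.043 for Eif3k, -0.051 to 0.021 for Eif3l and -0.069 to 0.011 for Eif4g3. The share of higher genes among the calls was 50% and ranged from 41.7% to 50%. The replicate numbers are shared by the groups. Correlations of deviations were -0.087 to 0.044 between same-numbered libraries and -0.131 to 0.122 between differently numbered ones. Of 6 libraries, 2 correlated best with their own number. No pairing by number was seen, and 3 libraries per group are too few to settle whether there was one. A fit with the replicate number as a block called 37 of the 59 genes and 8399 of all genes. With 3 libraries per group no single value reaches p under 0.1 in an exact permutation test, and differences under about 0.1 in log2 are within the error of most of these genes.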
